A study of Rattus norvegicus with 10 samples.

Results

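The 9 genes described here encode lysine acetyltransferases. They are Crebbp (CBP) and Ep300 (p300), the pair of enzymes that the small molecule TTK21 activates, and 7 related enzymes, Kat2a, Kat2b, Kat5, Kat6a, Kat6b, Kat7 and Kat8. They were taken by gene name from a count table of 32545 rat genes, and each name matched 1 row. All 9 were among the 15032 genes with enough counts to be tested. RNA was sequenced from the CA1 region cut out of acute hippocampal slices of male Wistar rats 5 to 7 weeks old, with 5 groups of 2 libraries (10 libraries), and each library combined 2 slices from 2 biological samples. In the SKF group, slices received SKF, an agonist of D1/D5 dopamine receptors. The SKF+Aβ group received the agonist and 200 nM of amyloid-β (1-42) oligomers, the SKF+Aβ+CSP group also received 0.36 µg/ml of CSP, a glucose-derived carbon nanosphere that serves as carrier, and the SKF+Aβ+CSP-TTK21 group received CSP-TTK21, the nanosphere carrying TTK21, at the same 0.36 µg/ml in place of CSP. The fifth group, CSP-TTK21 alone, received the loaded nanosphere with neither SKF nor Aβ. Slices in all groups had 30 min of basal stimulation and were collected 1 h after treatment, so the groups model acute exposure in tissue with mixed cell types.

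Lysine acetyltransferases move an acetyl group from acetyl-CoA to lysines of histones and other proteins, which loosens the contact of histones with DNA and creates docking sites for bromodomain proteins. CBP and p300 are closely related coactivators that bind phosphorylated CREB, the transcription factor switched on by cAMP and calcium in neurons, and CBP in particular is known for its role in hippocampal long-term memory. Kat2a (GCN5) and Kat2b (PCAF) are the catalytic subunits of the SAGA and ATAC coactivator complexes. The MYST enzymes comprise Kat5 (TIP60, in the NuA4 complex), Kat6a (MOZ), Kat6b (MORF), Kat7 (HBO1) and Kat8 (MOF). TTK21 acts on the enzymes as proteins, whereas the libraries measured their transcripts. In bulk RNA, fewer cells of a type and less RNA per cell cannot be told apart.

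Promoter sequences are shown because CREB-bound CBP and p300 act at promoters and the CREB recognition letters could be looked for in the members' own promoters. RefSeq windows of the GRCr8 build were held for 7 of the 9 genes, with Kat2a and Kat6a without an entry, and the 250 bases before each start were searched on both strands. Shown are the bases before the first annotated base of the gene, 217 for Crebbp and 250 for Ep300. Capitals mark GC boxes (GGGCGG), here 2 that overlap each other in Crebbp and none in Ep300.
Crebbp, chr10:11842090-11842306, plus strand: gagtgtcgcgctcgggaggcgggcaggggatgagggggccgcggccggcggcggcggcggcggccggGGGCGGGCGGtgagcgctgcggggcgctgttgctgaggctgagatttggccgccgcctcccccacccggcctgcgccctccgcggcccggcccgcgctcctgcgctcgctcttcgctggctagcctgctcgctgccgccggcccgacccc
Ep300, chr7:114987607-114987856, plus strand: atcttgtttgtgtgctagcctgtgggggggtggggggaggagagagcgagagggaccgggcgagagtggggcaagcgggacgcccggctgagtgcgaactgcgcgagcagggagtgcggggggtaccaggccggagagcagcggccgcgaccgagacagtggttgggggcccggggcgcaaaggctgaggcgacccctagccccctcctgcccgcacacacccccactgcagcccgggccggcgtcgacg
The searched 250 bases were 82% G or C in Crebbp, with 43 CpG and 3 GC boxes, and 72.8% in Ep300, with 24 CpG, against a median of 51.2% and 5 CpG over 33469 rat windows. The full cAMP response element (TGACGTCA) was in no window of the 7 genes and in 1.59% of all windows. Its half-site (TGACG, which the full element contains) was in neither Crebbp nor Ep300 and in 18.2% of all windows. GC boxes were in 30.5% of all windows, CCAAT in 34% and the ETS letters CCGGAAG in 7.27%, and Ep300 held none of the 3. The half-site, in capitals, lay in the searched bases of Kat2b, Kat5, Kat7, Kat8 and 1 of the 8 windows of Kat6b, and the 3 that lie before the gene's first annotated base are shown in 25 bases each.
Kat2b, chr9:6799057-6799081, plus strand: gattggccgcTGACGggtacttctg
Kat7, chr10:80752430-80752454, minus strand: aaaggtcaggTGACGcaagcctcag
Kat8, chr1:191954717-191954741, plus strand: aaccttgccaCGTCAcaacctcccc
In Kat8 the half-site is on the opposite strand and reads CGTCA. A match of these letters is a description of the window and not a binding site.

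The libraries held 6753742 to 8473407 counts each, so that 3 counts corresponded to 0.354 to 0.444 CPM, the count scaled to the same library total in each library. SKF replicate 1 stood somewhat apart, with a median correlation with the others of 0.969 on the log2 CPM scale against 0.976 to 0.981 for the other 9 libraries. Without it, 0 of 9 members were called against SKF in each of the 4 comparisons with that group, and their median log2 fold change was 0.10 in place of 0.11 in SKF+Aβ, 0.13 in place of 0.08 after CSP was added, 0.01 in place of -0.06 after CSP-TTK21 was added, and 0.01 in place of -0.04 for CSP-TTK21 alone. The labelled tissue was described with a list of pyramidal neuron markers, called the CA1 list here. Of these, Wfs1, Mpped1, Camk2a, Slc17a7 and Neurod6 had counts in every library, Fibcd1 was at 0 in every library and Pou3f1 was not matched. Their summed level was 2909 to 4192 CPM, with no overlap between SKF (3461 and 4192) and SKF+Aβ (3266 and 3416). Most of it came from Camk2a (mean 1661 CPM) and Slc17a7 (1297), against 187.6 for Wfs1. Camk2a and Slc17a7 are not particular to CA1, so the sum does not check the CA1 label. Markers of other cells were present too, as summed levels of 202.6 to 302.1 CPM for dentate granule cells, 211.5 to 330.5 for CA3 pyramidal neurons, 382.8 to 548.9 for interneurons, 2117 to 3016 for astrocytes, 7178 to 17450 for oligodendrocytes, 49.1 to 110.6 for microglia, 48.8 to 123.8 for endothelial cells and 1.14 to 7.02 for choroid plexus.

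Levels of 8 of the 9 transcripts varied by less than the median tested gene across the treatments, Kat2b being the exception. CPM values are not divided by transcript length, so each gene was compared only with itself. Crebbp, the gene of CBP, was at 277.0 and 273.1 CPM with SKF, at 307.4 and 293.3 with Aβ added to SKF, at 280.0 and 302.5 with Aβ and CSP added, at 281.9 and 278.0 with Aβ and CSP-TTK21 added, and at 298.0 and 273.8 with CSP-TTK21 alone. Its group means ran from 275.1 ± 2.75 CPM in SKF through 279.9 ± 2.73 in SKF+Aβ+CSP-TTK21, 285.9 ± 17.1 with CSP-TTK21 alone and 291.3 ± 15.9 in SKF+Aβ+CSP to 300.4 ± 9.998 in SKF+Aβ (SD, n = 2). SKF was the lowest group and SKF+Aβ the highest, without overlap between the libraries of these 2 groups, and each neighbour in this order overlapped the next except SKF and SKF+Aβ+CSP-TTK21. Crebbp had 1950 to 2370 counts in a library and the narrowest range of the 9 genes, its highest library being 1.13 times its lowest.

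Ep300, the gene of p300, was at 64.0 and 67.8 CPM with SKF, at 74.9 and 68.1 with Aβ added to SKF, at 65.9 and 68.6 with Aβ and CSP added, at 74.1 and 60.7 with Aβ and CSP-TTK21 added, and at 66.1 and 61.8 with CSP-TTK21 alone. The 2 libraries of SKF+Aβ+CSP-TTK21 spanned nearly the whole range of the gene, from the lowest of the 10 libraries to the second highest. Group means were 63.9 ± 3.09 CPM with CSP-TTK21 alone, 65.9 ± 2.70 with SKF, 67.3 ± 1.89 after Aβ and CSP were added, 67.4 ± 9.48 after Aβ and CSP-TTK21 were added, and 71.5 ± 4.78 after Aβ was added by itself (SD, n = 2). No neighbours in this order were separated by more than their spread.

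Of the SAGA and ATAC enzymes, Kat2a (GCN5) was at 63.9 and 64.8 CPM with SKF, at 52.0 and 63.2 with Aβ added to SKF, at 55.6 and 64.2 with Aβ and CSP added, at 55.1 and 58.5 with Aβ and CSP-TTK21 added, and at 63.9 and 49.9 with CSP-TTK21 alone. The SKF libraries agreed closely and lay above both libraries of SKF+Aβ and of SKF+Aβ+CSP-TTK21, while the other groups held 1 library near the SKF level and 1 below it. Kat2b (PCAF) was the least counted gene, with 28 to 80 counts in a library, at 5.39 and 4.27 CPM with SKF, at 6.71 and 4.17 with Aβ added to SKF, at 9.45 and 6.01 with Aβ and CSP added, at 6.78 and 5.70 with Aβ and CSP-TTK21 added, and at 5.77 and 4.95 with CSP-TTK21 alone. A single library, SKF+Aβ+CSP replicate 1 with 80 counts, held its highest level, and the highest library was 2.27 times the lowest.

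Among the MYST enzymes, Kat5 (TIP60) was at 39.1 to 50.9 CPM, and its lowest and highest libraries were the 2 of the SKF group. Kat6a (MOZ) was at 214.9 to 261.5 CPM, lowest in SKF+Aβ replicate 2 and highest in SKF+Aβ+CSP replicate 2. Kat7 (HBO1), known for acetylating histone H3 and H4 at replication origins and promoters, was at 91.5 and 99.3 CPM with SKF, at 99.9 and 114.5 with Aβ added to SKF, at 103.9 and 99.7 with Aβ and CSP added, at 108.7 and 102.8 with Aβ and CSP-TTK21 added, and at 102.4 and 101.3 with CSP-TTK21 alone. Both SKF libraries lay below all 8 others for Kat7.

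Kat6b (MORF), the partner paralog of Kat6a, was at 84.5 and 72.2 CPM with SKF, at 87.3 and 81.2 with Aβ added to SKF, at 83.8 and 88.5 with Aβ and CSP added, at 73.5 and 73.6 with Aβ and CSP-TTK21 added, and at 75.4 and 67.4 with CSP-TTK21 alone. The libraries with the loaded nanosphere, with or without SKF and Aβ, were all below those of SKF+Aβ and SKF+Aβ+CSP, and the SKF group overlapped both sides. Kat8 (MOF), the main acetyltransferase for histone H4 in the MSL and NSL complexes, was at 27.0 and 20.8 CPM with SKF, at 22.8 and 22.5 with Aβ added to SKF, at 24.7 and 23.4 with Aβ and CSP added, at 19.9 and 22.4 with Aβ and CSP-TTK21 added, and at 21.7 and 17.8 with CSP-TTK21 alone. Its highest level was in an SKF library and its lowest in a library of CSP-TTK21 alone.

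**Figure D1:**
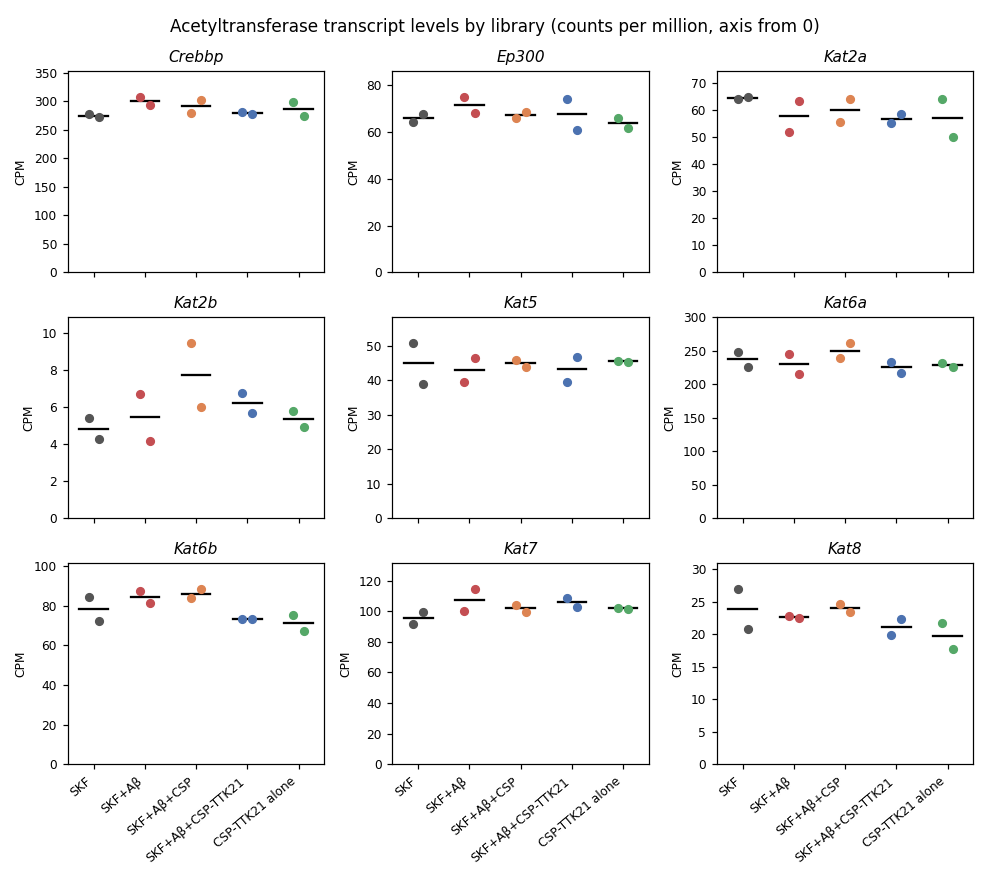
Transcript level (CPM, vertical axes from 0) of each of the 9 acetyltransferase genes in the 5 groups, with 1 point per library and a bar at the mean of the 2 libraries. Most points of a gene sit close to 1 level across groups, and the SKF+Aβ+CSP library at 9.45 CPM of Kat2b stands above the other 9.

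The spread of these genes was small beside that of the other genes tested. The coefficient of variation over the 10 libraries was 4.42% for Crebbp, 5.91% for Kat7, 6.22% for Kat6a, 6.92% for Ep300, 8.65% for Kat5, 9.18% for Kat6b, 9.52% for Kat2a, 11.4% for Kat8 and 25.7% for Kat2b, and the median over all tested genes was 17.1%. Kat2b was the single member above that median. Within groups the coefficient of variation was 4.02% for Crebbp and 7.68% for Ep300, and the median of all genes was 14.7%. The highest group mean was 1.09 times the lowest for Crebbp, 1.12 times for Ep300 and 1.60 times for Kat2b, and the median of all genes was 1.38. Low-count genes enter that median, and counting error is larger in them.

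None of the 9 genes changed in any of the 8 comparisons at an adjusted p under 0.05 (edgeR quasi-likelihood test, Benjamini-Hochberg adjustment over all tested genes), and 0 of 9 had an unadjusted p under 0.05 in any of them. DESeq2 and limma-trend also called 0 of 9 in each comparison at an adjusted p under 0.05. A test across all 5 groups at once called 0 of 9, where it called 1 of the 15032 genes (0.00665%) and the same test in DESeq2 386, and 0 of 9 at an unadjusted p under 0.05, where 14.3% of all genes passed. The adjusted p of that test ranged from 0.56 for Kat6b to 0.989 for Kat5, with 0.914 for Crebbp and 0.915 for Ep300.

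The effect of Aβ was addressed by SKF+Aβ against SKF. Crebbp was 0.13 higher on the log2 scale (SE 0.12, 95% interval of the fold 0.918 to 1.299, adjusted p = 0.539, edgeR) and Ep300 0.12 higher (SE 0.14, interval 0.88 to 1.34, adjusted p = 0.651). The intervals leave room for a fold up to 1.299 for CBP and 1.34 for p300, and for a small decrease of either. The 9 log2 fold changes had a median of 0.11 and ran from -0.16 in Kat2a to 0.18 in Kat2b, and their median size was 0.12 against 0.28 over all genes. The 2 groups did not overlap for 4 genes, Crebbp, Ep300 and Kat7 being higher and Kat2a lower, and 49.6% of all genes likewise did not overlap. The share of all genes called was 2.08% at an adjusted p under 0.05 and 22.8% at an unadjusted p under 0.05, and none of the 9 was among them.

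With the empty carrier added to Aβ (SKF+Aβ+CSP against SKF), the 9 genes had a median log2 fold change of 0.08, from -0.10 in Kat2a to 0.69 in Kat2b. Crebbp, Kat2b and Kat7 were higher without overlap, 3 of 9 beside 52.4% of all genes. Kat2b had the highest log2 fold change and the smallest adjusted p of the 72 values in all comparisons, 0.69 (SE 0.32, 95% interval of the fold 0.994 to 2.61, adjusted p = 0.265, edgeR). Without SKF+Aβ+CSP replicate 1 it was 0.30 and without replicate 2 of that group 0.95. That library also held the highest summed level of endothelial markers, 123.8 CPM (Flt1, Slco1a4 and Kdr had counts in every library, Cldn5 was at 0 in every library and Pecam1 was not matched), while the next highest, SKF replicate 1 at 113.5 CPM, had Kat2b at 5.39 CPM, and the SKF+Aβ+CSP-TTK21 libraries, with the lowest endothelial sums of 53.9 and 48.8, had it at 6.78 and 5.70. The part of these cells in the Kat2b level was not tested. Between SKF+Aβ+CSP and SKF, summed markers were lower without overlap for the CA1 list (3240 and 2909 against 3461 and 4192 CPM). Those of oligodendrocytes were lower too (11450 and 10910 against 11540 and 17450), and the sums of the other cell types overlapped. Their part in the member values was not tested. Over all genes 0.02% were called at an adjusted p under 0.05 and 19.3% passed unadjusted. Against SKF+Aβ, the same carrier group gave a median of 0.06, from -0.09 in Ep300 to 0.51 in Kat2b. There 1 of 9, Kat8, did not overlap and was higher, beside 27.2% of all genes, and the calls over all genes were 0% adjusted and 2.18% unadjusted. Summed oligodendrocyte markers were higher without overlap (11450 and 10910 against 9722 and 7178 CPM). Those of the CA1 list (3240 and 2909 against 3266 and 3416) and of choroid plexus (3.89 and 4.387 against 4.458 and 4.462) were lower. Their part was not tested.

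The question of the activator was addressed by 3 comparisons of SKF+Aβ+CSP-TTK21. Against SKF+Aβ, Crebbp had a log2 fold change of -0.10 (SE 0.12, 95% interval of the fold 0.784 to 1.11, adjusted p = 0.874, edgeR) and Ep300 of -0.08 (SE 0.14, interval 0.766 to 1.16, adjusted p = 0.911). The median over the 9 genes was -0.03, from -0.20 in Kat6b to 0.20 in Kat2b. Crebbp, Kat6b and Kat8 were lower without overlap, 3 of 9 beside 35.9% of all genes, and the calls over all genes were 0% adjusted and 6.59% unadjusted. The summed markers without overlap between these groups are given with CSP-TTK21 first. They were 3723 and 3745 against 3266 and 3416 CPM for the CA1 list, and 15090 and 9907 against 9722 and 7178 for oligodendrocytes. Those of astrocytes were 2843 and 2657 against 2603 and 2121, and those of endothelial cells 53.9 and 48.8 against 89.0 and 65.9. Their part in the member values was not tested. Kat6b, at a mean of 84.3 ± 4.30 CPM without and 73.5 ± 0.0436 with the loaded nanosphere (SD, n = 2), did not pass the test (adjusted p = 0.78, edgeR).

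Against the empty carrier at the same 0.36 µg/ml of carrier or loaded carrier, Crebbp had a log2 fold change of -0.06 (interval of the fold 0.808 to 1.14, adjusted p = 0.891, edgeR) and Ep300 of 0.01 (interval 0.815 to 1.24, adjusted p = 0.992). The median was -0.08, from -0.32 in Kat2b to 0.06 in Kat7. Kat6a, Kat6b and Kat8 were lower without overlap, 3 of 9 beside 46.3% of all genes, and 0% of all genes were called adjusted and 8.78% unadjusted. The smallest adjusted p here was that of Kat6b, with a log2 fold change of -0.23 (SE 0.13, interval of the fold 0.70 to 1.04, adjusted p = 0.604, edgeR). The Kat2b value rested on the 1 high carrier library and was 0.05 without it. Between these groups the summed markers of the CA1 list were 3723 and 3745 CPM with TTK21 and 3240 and 2909 with the carrier. Those of endothelial cells were 53.9 and 48.8 against 123.8 and 86.3. The sums were also higher with TTK21 without overlap for dentate granule cells (279.8 and 246.4 against 234.7 and 245.0), CA3 neurons (276.4 and 279.5 against 247.2 and 266.2), interneurons (493.1 and 499.7 against 387.2 and 431.3), astrocytes (2843 and 2657 against 2231 and 2201) and microglia (74.4 and 110.6 against 59.9 and 49.1), and those of oligodendrocytes and choroid plexus overlapped. The part of cell composition in the member values was not tested.

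Against SKF, the loaded group SKF+Aβ+CSP-TTK21 gave a median of -0.06, from -0.18 in Kat2a to 0.37 in Kat2b. Crebbp differed by 0.03 (interval of the fold 0.856 to 1.21) and Ep300 by 0.03 (interval 0.831 to 1.26). Crebbp, Kat2b and Kat7 were higher and Kat2a lower without overlap, 4 of 9 beside 50.5% of all genes, and the calls over all genes were 0.00665% adjusted and 19.6% unadjusted. Summed markers were higher without overlap for interneurons (493.1 and 499.7 against 390.4 and 391.6 CPM), dentate granule cells (279.8 and 246.4 against 202.6 and 242) and CA3 neurons (276.4 and 279.5 against 237.8 and 261.8). Those of endothelial cells were lower (53.85 and 48.82 against 113.5 and 65.55). Their part in the member values was not tested. All comparisons with SKF share the same 2 SKF libraries, so a gene that is low or high in those shows in each of them, as Kat7 does.

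CSP-TTK21 alone differed from SKF in the absence of the dopamine agonist as well as in the presence of the loaded nanosphere, and these cannot be told apart. Crebbp was 0.06 higher on the log2 scale (interval of the fold 0.874 to 1.24, adjusted p = 0.922, edgeR) and Ep300 had a log2 fold change of -0.04 (interval 0.787 to 1.20, adjusted p = 0.949). The 9 genes had a median of -0.04, from -0.28 in Kat8 to 0.15 in Kat2b. Kat7 was higher without overlap, 1 of 9 beside 36.1% of all genes, and the calls over all genes were 0% adjusted and 7.78% unadjusted. Summed markers of interneurons were higher without overlap (412.9 and 456.1 against 390.4 and 391.6 CPM) and those of oligodendrocytes lower (10220 and 9510 against 11540 and 17450). Their part in the member values was not tested. Adding SKF and Aβ to the loaded nanosphere (SKF+Aβ+CSP-TTK21 against CSP-TTK21 alone) gave a median of 0.04, from -0.08 in Kat5 to 0.22 in Kat2b. Kat7 alone did not overlap and was higher, beside 33.6% of all genes, and the calls were 0% adjusted and 4.18% unadjusted. Summed markers were higher without overlap for the CA1 list (3723 and 3745 against 3527 and 3082 CPM) and interneurons (493.1 and 499.7 against 412.9 and 456.1). They were also higher for dentate granule cells and CA3 neurons. Those of endothelial cells were lower (53.85 and 48.82 against 74.52 and 65.75). Their part in the member values was not tested.

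**Figure D2:**
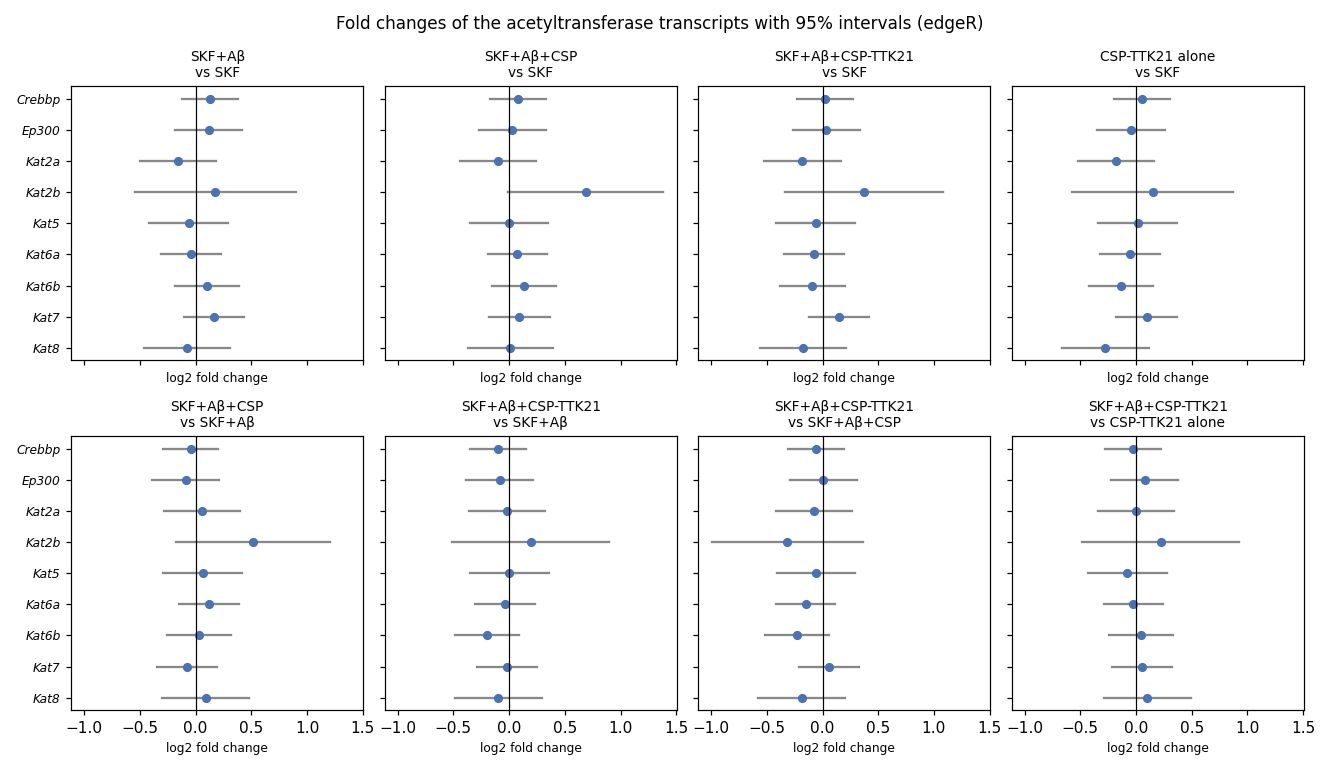
Log2 fold change (points) and its 95% interval (lines) of the 9 genes in each of the 8 comparisons, from the edgeR fit of all 10 libraries, with 0 marked by a vertical line. Each of the 72 intervals crosses 0, and those of Kat2b are the widest, reaching from -0.99 to 1.38.

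Over the 8 comparisons, the log2 fold changes of Crebbp lay between -0.10 and 0.13 and the 95% intervals of its fold between 0.784 and 1.299. For Ep300 they lay between -0.09 and 0.12, with intervals between 0.763 and 1.34. Of the other enzymes, intervals of the fold reached from 0.697 to 1.32 for Kat2a, 0.742 to 1.34 for Kat5, 0.747 to 1.31 for Kat6a, 0.70 to 1.34 for Kat6b, 0.788 to 1.36 for Kat7 and 0.63 to 1.41 for Kat8. Those of Kat2b reached from 0.502 to 2.61, the widest of the 9, on its 28 to 80 counts in a library. No member reached the log2 fold change limit of 1.5 that the study applied. Some counts carry an uncertainty of position, since reads from overlapping genes may be shared. In the GRCr8 annotation the span of Kat6a overlaps Kat6al, a copy named for it, that of Kat8 overlaps Prss8, that of Ep300 overlaps Rps35al1, and those of Kat2b and Kat6b overlap uncharacterised loci.

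The other genes of these enzymes' pathways were counted over 6 lists with 87 genes, of which 83 were tested. In SKF+Aβ against SKF, 2 of the 83 passed at an adjusted p under 0.05 and both rose, beside 2.08% of all genes, and 15 (18.1%) passed unadjusted, beside 22.8% of all genes. In each of the other 7 comparisons 0 of 83 passed adjusted in edgeR and in limma-trend. Unadjusted in edgeR, 14 (16.9%) passed in SKF+Aβ+CSP against SKF beside 19.3% of all genes, 5 (6.02%) for CSP-TTK21 alone against SKF beside 7.78%, and 0 in SKF+Aβ+CSP against SKF+Aβ beside 2.18%. For the loaded carrier with SKF and Aβ, 14 (16.9%) passed against SKF beside 19.6% of all genes, 2 (2.41%) against SKF+Aβ beside 6.59%, 3 (3.61%) against SKF+Aβ+CSP beside 8.78%, and 0 against CSP-TTK21 alone beside 4.18%. The unadjusted share of the 83 genes as 1 pool was below that of all genes in each of the 8 comparisons. Single lists were above it in some. Against SKF, other acetyltransferases had 35.7% after Aβ (all genes 22.8%). After Aβ and CSP (all genes 19.3%) they had 28.6%, the partners of Kat5 20% and the recruiters of CBP and p300 20%. After Aβ and CSP-TTK21 (all genes 19.6%) the recruiters had 33.3%, the partners of Kat8 and those of Kat6a, Kat6b and Kat7 22.2% each, and other acetyltransferases 21.4%. For CSP-TTK21 alone (all genes 7.78%) other acetyltransferases had 14.3%, the recruiters 13.3% and the partners of Kat8 11.1%. Against SKF+Aβ, the partners of Kat2a and Kat2b had 9.52% after CSP-TTK21 (all genes 6.59%). DESeq2 called 3 in SKF+Aβ against SKF, the third being the circadian factor Clock (named after its values were seen), and called the 2 that edgeR named there in both carrier groups with Aβ against SKF, with 0 in the other 5 comparisons. DESeq2 called 5.44% of all genes in SKF+Aβ against SKF, and 3.03% and 2.2% for the empty and the loaded carrier with Aβ against SKF.

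The list of other acetyltransferases, 14 tested, held the first of the 2 and 5 of 14 (35.7%) that passed unadjusted in SKF+Aβ against SKF, where 22.8% of all genes passed, all higher. The list's median was 0.04. The gene that passed was Esco1, an acetyltransferase that acetylates the cohesin subunit Smc3 and so helps sister chromatids hold together. Esco1 was at 18.7 and 25.4 CPM with SKF, at 51.1 and 38.0 with Aβ added to SKF, at 34.6 and 41.5 with Aβ and CSP added, at 39.9 and 39.2 with Aβ and CSP-TTK21 added, and at 28.4 and 42.5 with CSP-TTK21 alone. The SKF libraries were the 2 lowest of the 10. The log2 fold change in SKF+Aβ against SKF was 1.02 (SE 0.22, adjusted p = 0.0422, edgeR), and leaving out 1 library at a time it was 0.77 to 1.26 and stayed called in 5 of 10 cases. Without SKF replicate 1 it was 0.80 (adjusted p = 0.166, edgeR). It lost the call when either SKF+Aβ library, SKF replicate 1 or either SKF+Aβ+CSP library was left out. Against the same SKF libraries the SKF+Aβ+CSP group had 0.79, the SKF+Aβ+CSP-TTK21 group 0.84 and the CSP-TTK21 alone group 0.69, none past the adjusted threshold in edgeR.

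The other gene, from the 9 tested MSL and NSL partners of Kat8 (2 passed unadjusted, 22.2%, median 0.03), was Ogt, the O-GlcNAc transferase, which is a sugar-transferring enzyme found in the NSL complex with Kat8. Ogt was at 127.0 and 165.4 CPM with SKF, at 235.7 and 241.9 with Aβ added to SKF, at 209.1 and 233.5 with Aβ and CSP added, at 230.7 and 203.5 with Aβ and CSP-TTK21 added, and at 188.2 and 221.5 with CSP-TTK21 alone. Here too the SKF libraries were the lowest of the 10 and the SKF+Aβ libraries the highest. The log2 fold change in SKF+Aβ against SKF was 0.71 (SE 0.15, adjusted p = 0.0402, edgeR), with 0.51 to 0.91 when 1 library was left out and the call kept in 5 of 10 cases. Without SKF replicate 1 it was 0.51 (adjusted p = 0.162). The call was lost without the same 5 libraries as for Esco1. In these 2 groups the summed oligodendrocyte markers (Mbp, Mog, Mobp and Mag, all with counts in every library) were 11540 and 17450 CPM in SKF and 9722 and 7178 in SKF+Aβ, and the part of cell composition in the 2 rises was not tested.

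Lists with no call were described by their counts and by the gene with the smallest p, and the unadjusted counts in SKF+Aβ against SKF are to be read beside the 22.8% of all genes that passed there. Among 21 tested SAGA and ATAC partners of Kat2a and Kat2b in SKF+Aβ against SKF, 3 (14.3%) passed unadjusted and the median log2 fold change was 0.10, against -0.00133 over all genes. Eny2, a subunit of the SAGA deubiquitinating module, had a log2 fold change of 0.51 in SKF+Aβ+CSP-TTK21 against SKF (SE 0.14, adjusted p = 0.121, edgeR). Against SKF the other groups had 0.29 for SKF+Aβ, 0.42 for SKF+Aβ+CSP and 0.30 for CSP-TTK21 alone. The SKF libraries, at 39.5 and 43.8 CPM, were the lowest of all libraries for Eny2. Of 15 NuA4/TIP60 partners of Kat5, 1 (6.67%) passed unadjusted and the median was 0.06. Vps72, a histone H2A.Z chaperone, had -0.55 in SKF+Aβ+CSP against SKF (SE 0.17, adjusted p = 0.113), -0.54 in SKF+Aβ (adjusted p = 0.088), -0.33 after Aβ and CSP-TTK21 were added, and -0.22 for CSP-TTK21 alone.

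Of 9 partners of Kat6a, Kat6b and Kat7 in the BRPF and JADE complexes, 1 (11.1%) passed unadjusted in SKF+Aβ against SKF with a list median of -0.11, and against the same SKF libraries the median was -0.23 for the empty carrier with Aβ, -0.28 for the loaded one with Aβ and -0.16 for CSP-TTK21 alone, which had no Aβ. Brpf3, a scaffold of Kat7, had -0.60 in SKF+Aβ+CSP-TTK21 against SKF (SE 0.20, adjusted p = 0.144, edgeR), which was -0.38 without replicate 1 and -0.87 without replicate 2 of that group. The other values for Brpf3 against SKF were -0.50 in SKF+Aβ, -0.40 after Aβ and CSP were added and -0.35 for CSP-TTK21 alone. Of 15 recruiters and cofactors of CBP and p300, 3 (20%) passed unadjusted in SKF+Aβ against SKF, 1 higher and 2 lower, with a median of -0.09. After Aβ and CSP-TTK21 were added, 5 (33.3%, all genes 19.6%) passed, 2 higher and 3 lower, with a median of -0.19. Srf, the serum response factor that recruits CBP at immediate early genes, had -0.45 in SKF+Aβ (SE 0.15, adjusted p = 0.104), -0.39 after Aβ and CSP were added, -0.44 after Aβ and CSP-TTK21 were added, and -0.43 for CSP-TTK21 alone, which had no Aβ. The 2 SKF libraries were the highest of the 10 for Srf.

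**Figure D3:**
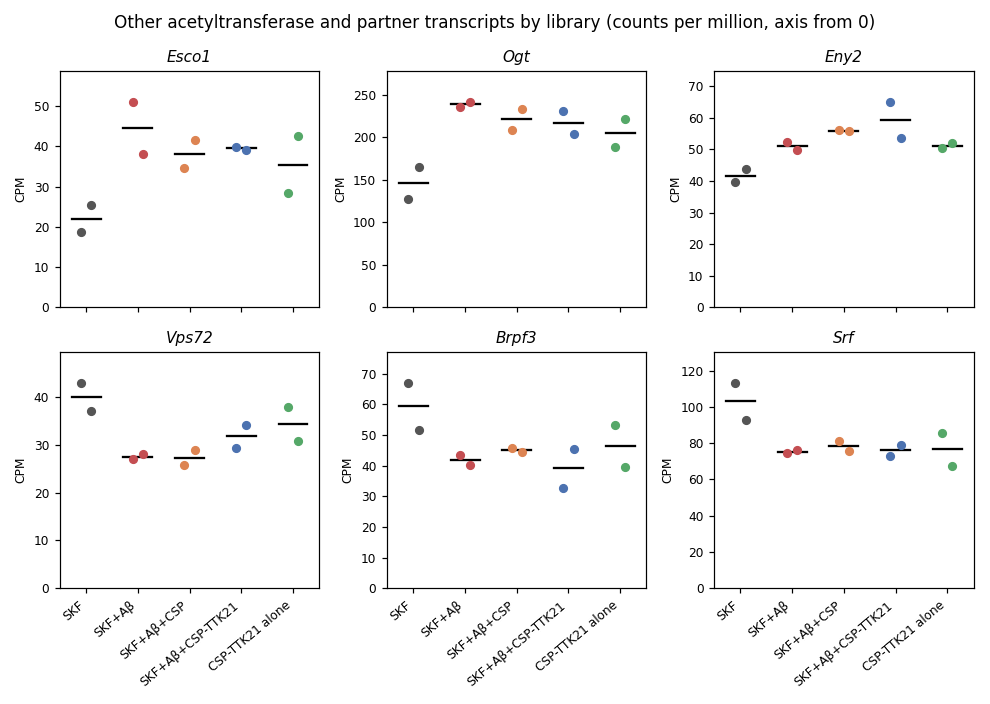
Transcript level (CPM, vertical axes from 0) of Esco1 and Ogt, which passed the adjusted test in SKF+Aβ against SKF, and of Eny2, Vps72, Brpf3 and Srf, which did not pass in any comparison, with 1 point per library and a bar at the mean of the 2 libraries. The SKF libraries are the 2 lowest for Esco1, Ogt and Eny2.

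Patterns over the 10 libraries were compared by Pearson correlation of log2 CPM as a description, since libraries of a group share their treatment. Crebbp and Ep300 had r = 0.57 with each other. Over the 36 pairs of members r had a median of 0.19 and ran from -0.73 for Ep300 and Kat5 to 0.81 for Kat6b and Kat8. Of 11493 genes with a mean of at least 5 CPM, those most like Crebbp were Phf8 (r = 0.931), a histone demethylase, Ntrk3 (0.925), the neurotrophin receptor TrkC, Tmem131 (0.917), AC239701.1 (0.906) and Uimc1 (0.905), a ubiquitin-binding protein of the BRCA1-A complex. Those most like Ep300 were Shisa6 (r = 0.935), an AMPA receptor auxiliary protein, Grin2a (0.929), an NMDA receptor subunit, Strip2 (0.917), Ints9 (0.915), an Integrator subunit, and Klf9 (0.911), a Krüppel-like transcription factor. These names changed with the libraries used: with any 1 library left out, 0 to 4 of the 5 genes were again among the 5 most like the same enzyme.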

How the data were processed

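Per the study's methods, RNA of microdissected CA1 was sequenced as stranded, ribosome-depleted paired-end libraries. The authors deposited a table of read counts per rat Ensembl gene, not normalized. The study's methods name TopHat2 and Cufflinks, with the rat build Rnor_6.0 for the index and the mouse build mm10 for the alignment, and the submitters' processing notes list STAR, HISAT2, RSEM, Salmon and the build GRCh38. Which program, build and strand setting made the counts is not given in the sources used here, so overlapping genes and paralogs may share reads. The study also had an untreated group, which was not analysed here.

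Counts were tested with edgeR 4.0.16 (R 4.3.3) using TMM factors, filterByExpr, the quasi-likelihood F-test and 1 fit of all 10 libraries, with Benjamini-Hochberg adjustment over 15032 genes and calls at an adjusted p under 0.05, for 8 comparisons and for any difference among the 5 groups. CPM values used TMM-scaled totals, and correlations a prior count of 2. The 2 libraries of a group differed by more than counting error (chi-square divided by its degrees of freedom 4.73 to 12.1). The p-values weigh a difference against a spread estimated within the groups over all 10 libraries and shared in part across genes. Scripts were tested on simulated data. Alternatives were DESeq2 1.42.0, limma-trend (limma 3.58.1), RLE factors, other filters, fits of 4 libraries, the replicate number as a block, and leaving out each library.

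The members and lists were chosen with earlier results of these data known. Named were all 9 members, list genes that passed, the gene with the smallest p of a list with none, and the 5 genes most correlated with Crebbp and with Ep300. Clock was named after its values were seen. Sequences are from RefSeq (GRCr8). Some marker genes are not reported here and were left out of the summed marker levels.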

Additional observations from a re-analysis of the deposited data

How the results depend on the processing

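No member was called under any alternative: 0 of the 1224 alternative values (720 of them leaving out 1 library) passed an adjusted p under 0.05, and the smallest adjusted p was 0.203. Of these values 71, in 40 of the 72 fold changes, had another sign than the value reported, and the largest move was 0.40 on the log2 scale. With the replicate block 0 of 9 members were called in each comparison, as without it. The correlation of same-numbered libraries' deviations was above 0.1 in 4 of 10 pairs of groups, with a range from -0.07 to 0.24. With 2 libraries per group, these values cannot decide whether the replicate numbers pair the samples. Brpf3 was called by 1 alternative, the one with no filter. Esco1 and Ogt were each called by 6 of the 7 alternatives other than leaving out a library, and not by the fit of the 4 libraries compared.

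The counts over all genes moved with the settings. For SKF+Aβ against SKF the count was 312 as reported, 425 with the block, 434 with at least 10 counts in every library, 818 with DESeq2, 1311 with no filter, 16 with the 4 libraries compared, and 1 to 301 leaving out 1 library (11 without SKF replicate 1, 1 and 13 without SKF+Aβ replicates 1 and 2, 26 without either SKF+Aβ+CSP library). In SKF+Aβ+CSP against SKF it was 3 as reported, 7 with the block, 8 with limma-trend, 54 with at least 10 counts in every library, 456 with DESeq2, 754 with no filter and 1 to 13 leaving out 1 library. In SKF+Aβ+CSP-TTK21 against SKF it was 1 as reported, 108 with the block, 330 with DESeq2, 902 with no filter, 335 without SKF replicate 2 and 0 to 1 without any other library. In SKF+Aβ+CSP-TTK21 against SKF+Aβ+CSP it was 0 as reported, 14 with the block, 21 with DESeq2, 62 with the 4 libraries compared, 307 with no filter, and 5 and 6 without SKF replicates 1 and 2. In the other 4 comparisons it was 0 as reported, 0 to 3 with DESeq2, 63 to 157 with no filter and at most 7 under the other alternatives. In the test across the 5 groups it was 1 as reported, 15 with the block, 386 with DESeq2, 1401 with no filter, and 4 and 8 without SKF replicates 1 and 2. The cause was not tested. Kat2b had 28 to 80 counts in a library and a coefficient of variation within groups of 24.7%.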
